A study of Rattus norvegicus with 4 samples.

Results

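The genes described here encode the factors that start, extend and end protein synthesis and the aminoacyl-tRNA synthetases that load each tRNA with its amino acid. They were taken by symbol: initiation factors whose names begin with Eif1 to Eif6, elongation factors beginning with Eef1 or Eef2, the release factors Etf1 and Gspt1, and the synthetases, whose symbols are a letter followed by ars and usually a number (Aars1, Tars2), with the joint enzyme Eprs1. This rule found 80 of the 10412 named genes on the array, with 94 of its 15923 probe sets, and used no measured value. Of the 80 genes, 58 were translation factors or their regulators and 22 were synthetases. A gene with several probe sets was described by the one of highest mean signal.

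The series holds liver RNA from 4 male Sprague-Dawley rats, 10 to 12 weeks old and given no treatment, each measured on its own Affymetrix array. All 4 belong to 1 control group with no allele or agent, so no condition was compared. The question the data can answer is which of these genes gave a signal and how far it differed between animals. Each animal had 1 array, so a difference between rats cannot be told apart from a difference between arrays.

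Translation begins when eIF2 brings the initiator tRNA to the small ribosomal subunit while the eIF4 factors recruit the capped mRNA and eIF3 bridges the mRNA and the ribosome. Elongation factors then deliver charged tRNAs and move the ribosome along, and release factors free the finished chain. The liver secretes most plasma proteins, so its translation is heavy. It is also tuned to amino acid supply through kinases that phosphorylate eIF2 and through the transcription factor ATF4, whose targets include amino acid synthesis enzymes and several synthetases.

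Promoter windows are described first, because a DNA element for ATF4 is known from amino acid response genes. The windows come from RefSeq (rat build GRCr8) and run from 250 bases before to 50 bases after each annotated transcription start. They were found for 73 of the 80 genes. The composite element that C/EBP and ATF proteins bind, searched as TGATGNAA on both strands, lay in the window of 7 of 15 cytosolic synthetases. It lay in 4.16% of all 27457 genes with a window and in 2.29% of the 8611 named genes of the array with one. Among translation factors and their regulators it lay in 1 of 53 windows, and among mitochondrial synthetases in 0 of 5. The motif was chosen with values of these data known, a match does not show binding, and its absence concerns these windows only. The 8 members with a match are printed in the direction of the gene, with the motif in capitals. It appears as TTNCATCA where it lies on the other strand.
Aars1 (chr19:55908335-55908412, plus strand): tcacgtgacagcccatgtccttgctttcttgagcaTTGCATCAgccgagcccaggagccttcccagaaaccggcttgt
Cars1 (chr1:208225334-208225363, minus strand): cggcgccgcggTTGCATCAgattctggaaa
Iars1 (chr17:15193653-15193711, minus strand): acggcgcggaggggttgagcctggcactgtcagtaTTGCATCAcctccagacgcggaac
Mars1 (chr7:65023754-65023805, minus strand): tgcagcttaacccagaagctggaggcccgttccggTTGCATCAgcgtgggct
Nars1 (chr18:60275783-60275831, minus strand): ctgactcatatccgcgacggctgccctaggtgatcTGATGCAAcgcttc
Tars1 (chr2:62114803-62114864, minus strand): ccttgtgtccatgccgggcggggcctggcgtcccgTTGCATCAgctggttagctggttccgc
Yars1 (chr5:146820190-146820212, plus strand): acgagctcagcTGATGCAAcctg
Eif2s2 (chr3:163855571-163855641, minus strand): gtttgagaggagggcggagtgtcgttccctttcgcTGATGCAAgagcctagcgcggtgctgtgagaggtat

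All 8 matches shown read TGATGCAA or, from the other strand, TTGCATCA. In Aars1 the motif began at base -112 from the annotated start, and a further match with another middle base, TTTCATCA, began at base 10 after it. In Iars1, Mars1, Nars1, Tars1 and Eif2s2 the motif began at bases -24, -17, -14, -27 and -36. In Cars1 and Yars1 it lay after the annotated start, at bases 18 and 39. Of 16 genes of the ATF4 and amino acid response list with a window, 3 held the motif, namely Chac1, Ppp1r15b and Trib3.

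**Figure D1:**
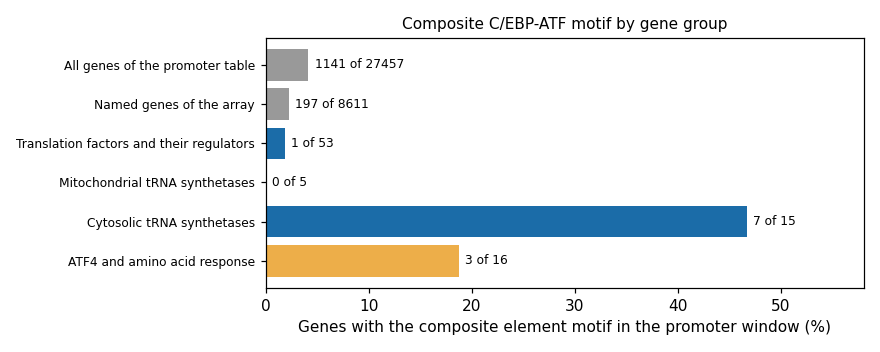
Share of genes (x axis, percent) whose promoter window holds TGATGNAA on either strand, by gene group (y axis), with counts beside each bar. The bar of cytosolic synthetases, 7 of 15, is the longest, and that of translation factors, 1 of 53, lies near the 2.29% of named array genes.

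Elongation factor mRNAs are known for a run of pyrimidines at their start, the terminal oligopyrimidine tract, which puts their translation under mTORC1. A run of at least 7 bases that are all C or T, beginning within 10 bases of the annotated start, was found in 10 of 73 members. The share was 14.8% over all genes with a window and 12.4% over the named array genes with one, so the members as a whole lay near the background. The length and place of the run were chosen after the values were seen. A stricter search, for a C at the annotated start followed by 4 pyrimidines, found 0 of 73 members, against 2.91% of the named array genes. It counted only a C exactly at the annotated base. In Eef1a1 a C followed by TTTTTC lay just before that base, and in Kars1 a C followed by pyrimidines lay at base -2. The count of 0 thus depends on where the start is annotated and does not show that the members lack the tract. The run of at least 7 was found in 9 of 53 translation factors and regulators. Among these were 2 of 6 elongation factors, Eef1a1 and Eef1b2, and 2 of 10 eIF3 subunits, Eif3f and Eif3m. The others were Eif2s3 (16 bases, from the annotated start), Eif4h, Eif1ad, Eef1e1 and Eef1akmt1. It was also found in 1 of 15 cytosolic synthetases, the lysine enzyme Kars1. The start sites of Eef1a1, Eef1b2 and Kars1 are shown with the run in capitals, to the end of the bases printed.
Eef1a1 (chr8:88225055-88225084, minus strand): tcgccttggacgTTCTTTTTCgcaacgggt
Eef1b2 (chr9:72074076-72074105, plus strand): tttccggccggtcccggCCCTTTTTCTCCC
Kars1 (chr19:56886069-56886098, minus strand): tctacgctagtcaCTTTTTTTTTCTgggtc

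A mean log2 signal over 8.25 was called above background. That level is the 95th percentile among 50 probe sets for 42 genes typical of other tissues (nerve, muscle, testis and eye). Over all named genes 50.1% had a mean above it, and 60 of the 80 members did. At a level higher by 1 log2 unit, 9.25, the shares were 16.1% of all named genes and 32 of 80 members. Hepatocyte markers were above background for 13 of 13 measured genes, Kupffer cell markers for 8 of 8, endothelial markers for 4 of 6, stellate cell and fibroblast markers for 6 of 12 and blood cell markers for 2 of 3. Lymphocyte and neutrophil markers were for 1 of 10 and bile duct markers for 0 of 4. In whole liver, fewer cells of a type and less RNA per cell cannot be told apart. Brightness also depends on the probes themselves, so members are not ranked by amount of transcript.

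**Figure D2:**
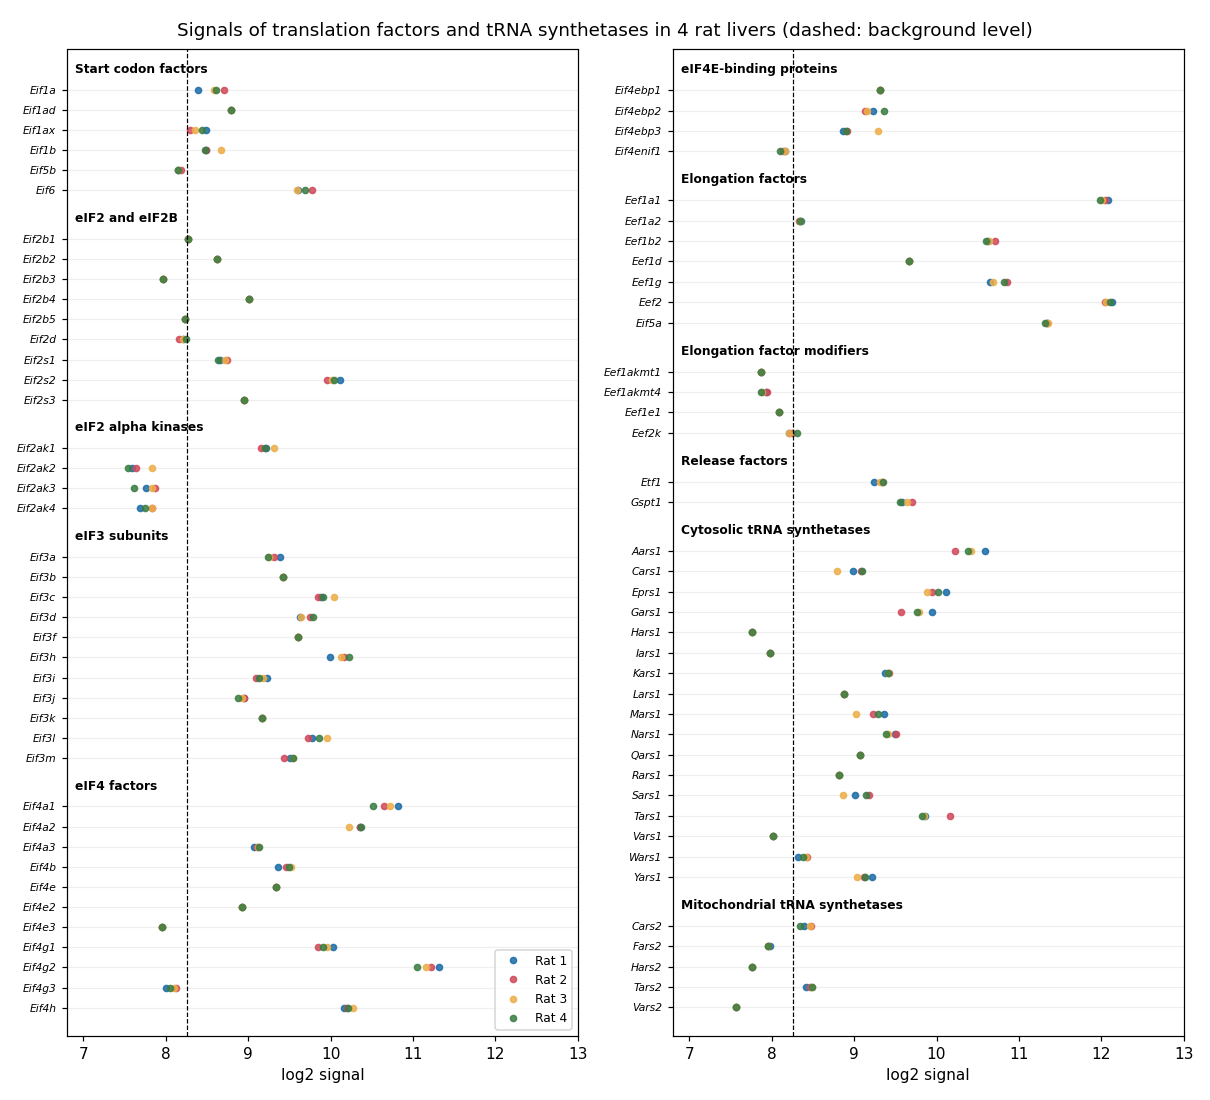
The log2 signal (x axis) of each of the 80 genes (y axis, grouped by role) in each of 4 rats (coloured points), with the background level of 8.25 dashed. Points of a gene mostly overlap, and every eIF3 subunit and every elongation factor lies to the right of the line, while 3 of 4 eIF2 kinases lie to its left.

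A flat gene, here one whose values were equal to within 0.001 log2 units on all arrays, gives no measure of the spread between rats. Flat genes made up 42.4% of all named genes and 24 of 80 members. Among genes above background they were 35.2% of all named genes and 14 of 60 members, which left 46 members above background that were not flat. Values below are log2 signals in rats 1 to 4, then the mean ± SD over n = 4 rats.

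Of the factors that prepare the small subunit and select the start codon, 5 of 6 were above background. Eif6, which keeps the ribosomal subunits apart, had signals of 9.60, 9.77, 9.59 and 9.69 (9.66 ± 0.08). Eif1a, an eIF1A gene, had 8.38, 8.71, 8.58 and 8.61 (8.57 ± 0.14), lowest in rat 1. Its relative Eif1ax went the other way, with 8.49, 8.29, 8.35 and 8.44 (8.39 ± 0.09), highest in rat 1. These relatives are near-identical in sequence, and whether their probes separate them was not tested. Eif1b, a close relative of the start codon factor eIF1, was at 8.48 to 8.49 in rats 1, 2 and 4 and at 8.67 in rat 3. Eif1ad was flat at 8.79. Eif5b, the GTPase that joins the subunits, had a mean of 8.16, below background.

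The eIF2 trimer was above background in each of its 3 subunits. Eif2s2, the beta subunit and the factor with a motif match above, had 10.12, 9.96, 10.01 and 10.04 (10.03 ± 0.07). Eif2s1, the alpha subunit that the stress kinases phosphorylate, had 8.66, 8.74, 8.72 and 8.64 (8.69 ± 0.05). Eif2s3, the gamma subunit that holds GTP, was between 8.94 and 8.95 in all rats. The exchange factor eIF2B, which recharges eIF2 with GTP, was flat in all 5 subunits at the probe sets used. Eif2b4 at 9.01, Eif2b2 at 8.62 and Eif2b1 at 8.26 lay above background, and Eif2b5 at 8.24 and Eif2b3 at 7.96 below it. Eif2b1 and Eif2b5 thus lay on opposite sides of the level but close to it. The other probe set of Eif2b5 was not flat, with 7.75, 7.84, 7.73 and 7.77, below background. Eif2d, a factor that delivers tRNA without GTP, had a mean of 8.20, below background.

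Of the 4 kinases that phosphorylate eIF2 alpha, 1 was above background. This was Eif2ak1, the heme-regulated kinase, with 9.21, 9.16, 9.31 and 9.21 (9.22 ± 0.07), highest in rat 3, and its other probe set was flat at 9.06. Eif2ak4, the kinase GCN2 that senses uncharged tRNA, had 7.69, 7.84, 7.84 and 7.75. Eif2ak3, the endoplasmic reticulum kinase PERK, had 7.76, 7.87, 7.84 and 7.61, and Eif2ak2, the RNA-dependent kinase PKR, had 7.59, 7.64, 7.83 and 7.54. All of these lay below 8.25 in every rat, which does not show that the transcripts were absent.

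The eIF3 complex, the scaffold of initiation, was above background in 11 of 11 measured subunits, with means from 8.92 to 10.12. Eif3h had 9.99, 10.16, 10.13 and 10.22 (10.12 ± 0.10), lowest in rat 1. Eif3c had 9.88, 9.84, 10.04 and 9.91 (9.92 ± 0.09), and Eif3l had 9.78, 9.73, 9.95 and 9.86 (9.83 ± 0.10). These last subunits had the same order of rats, 3, 4, 1 and 2 from high to low. Eif3d, a cap-binding subunit, was at 9.75 and 9.78 in rats 2 and 4 and at 9.63 and 9.64 in rats 1 and 3. Eif3a, the largest subunit, ran from 9.24 to 9.39, Eif3i from 9.09 to 9.22, Eif3m from 9.43 to 9.54 and Eif3j from 8.87 to 8.95. Eif3b at 9.42, Eif3f at 9.60 and Eif3k at 9.17 were flat. No eIF3 subunit had an SD over 0.1 log2 units.

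Of the eIF4 factors, which bind the cap and unwind the mRNA, 9 of 11 were above background. Eif4g2, the scaffold DAP5 that lacks the site for the cap-binding protein, had 11.32, 11.22, 11.16 and 11.05 (11.19 ± 0.11), while its other probe set was flat at 9.72. The helicase Eif4a1 had 10.82, 10.64, 10.73 and 10.52 (10.68 ± 0.13), and like the brighter probe set of Eif4g2 it was highest in rat 1 and lowest in rat 4. Its paralog Eif4a2 had 10.35, 10.35, 10.22 and 10.37 (10.32 ± 0.07), so rat 3 stood apart there and rat 4 was highest. The scaffold Eif4g1 had 10.03, 9.84, 9.96 and 9.90 (9.94 ± 0.08), while its other probe set was flat at 8.17, below background. Eif4h and Eif4b, which assist the helicase, had means of 10.21 and 9.46, and Eif4a3, the helicase of the exon junction complex, 9.11. The cap-binding protein Eif4e was flat at 9.33, while its other probe set had a mean of 7.99, below background, and was not flat. Eif4e2, a relative of Eif4e, was flat at 8.92. Eif4e3 at 7.96 and Eif4g3 at 8.07 were below background.

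Of the proteins that hold back eIF4E, the 3 binding proteins were above background. Eif4ebp1 was flat at 9.31. Eif4ebp2 had 9.23, 9.13, 9.15 and 9.36 (9.22 ± 0.10), highest in rat 4. Eif4ebp3 had 8.87, 8.92, 9.29 and 8.90 (SD 0.20), the largest SD of the 80 members. Its range of 0.42 log2 units is a 1.34-fold difference between the highest and the lowest rat, and rat 3 alone was high. The eIF4E transporter Eif4enif1 had a mean of 8.14, below background.

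Elongation factors were above background in 7 of 7 genes, and none had an SD over 0.1 log2 units. Eef2, the translocase, had 12.13, 12.05, 12.06 and 12.10 (12.08 ± 0.04), and Eef1a1, which delivers charged tRNA, had 12.08, 12.04, 12.00 and 11.99 (12.03 ± 0.04). The other probe set of Eef1a1 lay between 11.67 and 11.73, with rat 2 highest instead of rat 1, so the order of rats was not shared by its probe sets. The brighter one has the suffix s, which marks probes that also match related transcripts. Eif5a, which carries hypusine and helps ribosomes past prolines, had 11.34, 11.34, 11.35 and 11.31 (11.34 ± 0.02). The exchange factor subunits Eef1g and Eef1b2 had 10.75 ± 0.10 and 10.64 ± 0.05, with Eef1g at 10.65, 10.85, 10.69 and 10.82, higher in rats 2 and 4, and Eef1b2 at 10.62, 10.71, 10.64 and 10.60. Eef1d was flat at 9.67. Eef1a2, the paralog of Eef1a1 known from muscle and brain, was between 8.34 and 8.36, just above the background level of 8.25 in every rat.

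Genes that modify or accompany the elongation factors were above background in 0 of 4 cases. Eef2k, the kinase that stops Eef2, had 8.21, 8.25, 8.21 and 8.31 (8.24 ± 0.05) and was just above the level in rat 4, while its other 3 probe sets had means of 7.52 to 7.78. The lysine methyltransferases Eef1akmt1 and Eef1akmt4 had means of 7.88 and 7.90, and Eef1e1, a component of the multisynthetase complex, was flat at 8.08. Release factors were above background in 2 of 2 genes. Gspt1, the GTPase eRF3, had 9.58, 9.71, 9.65 and 9.56 (9.62 ± 0.07), and Etf1, the stop codon reader eRF1, had 9.24, 9.33, 9.32 and 9.35 (9.31 ± 0.05).

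**Figure D3:**
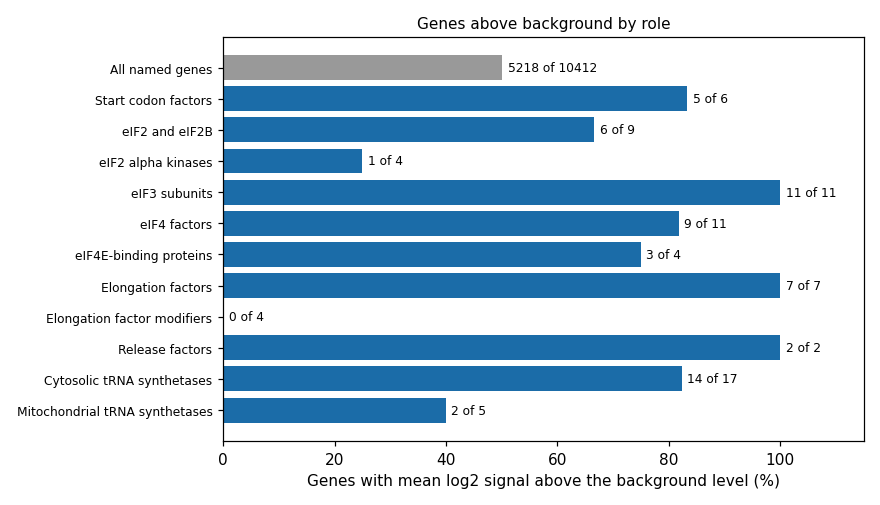
Percentage of genes with a mean above the background level of 8.25 (x axis) for all named genes and for each role (y axis), with counts beside the bars. Elongation factors and eIF3 subunits reach 7 of 7 and 11 of 11, against 5218 of 10412 named genes, while the modifiers of elongation factors reach 0 of 4.

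Cytosolic tRNA synthetases were above background for 14 of 17 genes, and mitochondrial ones for 2 of 5. Aars1, for alanine, had 10.59, 10.22, 10.41 and 10.38 (10.40 ± 0.15), and Gars1, for glycine, had 9.95, 9.57, 9.78 and 9.77 (9.77 ± 0.15). Both were highest in rat 1 and lowest in rat 2 and had the same order of rats, 1, 3, 4 and 2. Tars1, for threonine, had 9.86, 10.16, 9.85 and 9.83 (9.92 ± 0.16), and was high in rat 2 alone.

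A further set of synthetases was lowest in rat 3. Eprs1, the joint enzyme for glutamate and proline, had 10.11, 9.95, 9.88 and 10.02 (9.99 ± 0.10). Mars1, for methionine, had 9.36, 9.23, 9.03 and 9.29 (9.23 ± 0.14), and Yars1, for tyrosine, had 9.22, 9.12, 9.04 and 9.13 (9.13 ± 0.07). In all of these the order from high to low was rat 1, 4, 2 and 3, with rats 4 and 2 nearly equal in Yars1. Sars1, for serine, had 9.01, 9.18, 8.87 and 9.14 (9.05 ± 0.14), and Cars1, for cysteine, had 8.98, 9.09, 8.79 and 9.10 (8.99 ± 0.14), so they shared a low rat 3 and high rats 2 and 4. The next probe set of Cars1 gave the same low rat, with 8.77 in rat 3 against 8.82 in rat 1, 8.94 in rat 4 and a highest value in rat 2. The third was near the background level, with 8.40 in rat 1 and 8.32 to 8.35 in the others.

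The remaining synthetases varied less. Nars1, for asparagine, ran from 9.38 to 9.51, Kars1, for lysine, from 9.38 to 9.42 and Wars1, for tryptophan, from 8.31 to 8.43. Those for glutamine (Qars1, 9.07), leucine (Lars1, 8.87) and arginine (Rars1, 8.81) were flat. Vars1 at 8.01, Iars1 at 7.98 and Hars1 at 7.76 were flat too and below background. Among mitochondrial enzymes, Tars2 had 8.41, 8.46, 8.49 and 8.49 (8.46 ± 0.04) and Cars2 had 8.39, 8.48, 8.46 and 8.34 (8.42 ± 0.06). The other probe set of Tars2 had a mean of 8.07, below background. Fars2, Hars2 and Vars2 had means of 7.96, 7.77 and 7.57, below background.

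Differences between rats were small across the members. The median SD of the 60 members above background was 0.0586 log2 units, against 0.032 over all named genes above background. Without flat genes the medians were 0.0696 and 0.0564. An SD over 0.1 was found in 24.0% of all named genes above background and not flat, and in 11 of 46 members, which is close to that share. Of these 11, 6 were cytosolic synthetases, of which 11 were above background and not flat, and 5 were among the 33 translation factors and regulators. An SD of at least 0.3 was found in 3.78% of these named genes and in 0 members. The median deviation of the members from the gene means lay between -0.0087 and 0.0035 in the 4 rats.

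**Figure D4:**
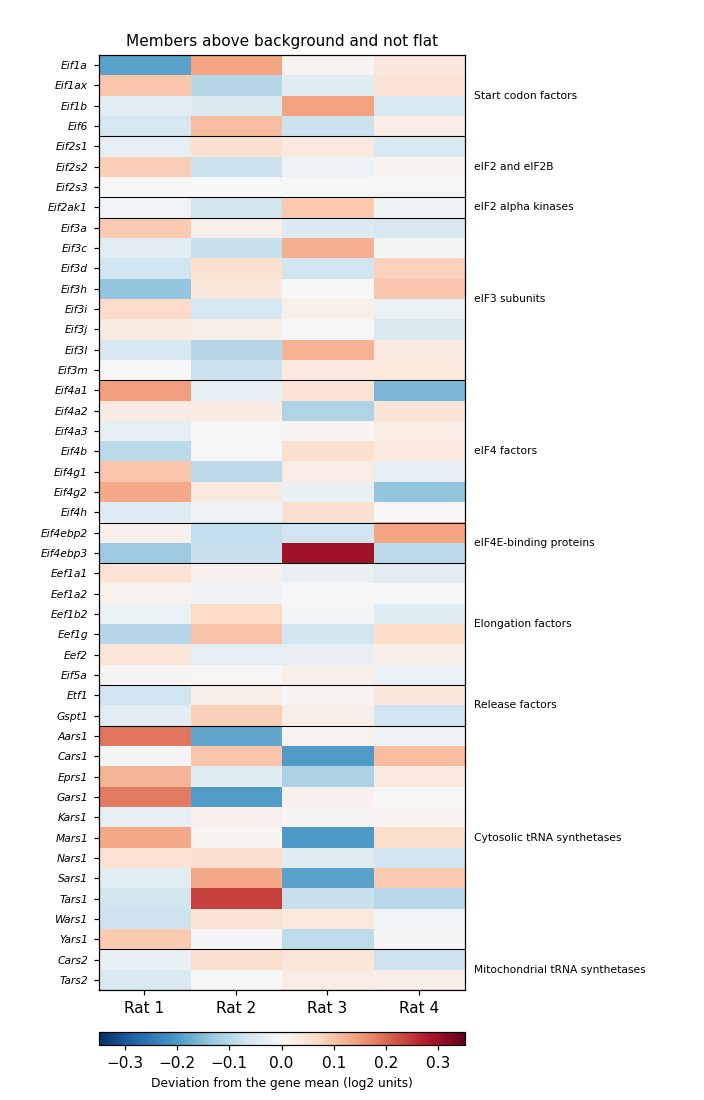
Deviation of each of the 46 members above background and not flat (rows, grouped by role) from its own mean, in log2 units, in each of 4 rats (columns); red is above and blue below the gene mean. Eif4ebp3 in rat 3 is the darkest cell, and the deepest blue and red among the rest lie in the rows of cytosolic synthetases.

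The cytosolic synthetases were also counted by the rat in which each was lowest or highest, as a description with no test. Of the 11 above background and not flat, 5 were lowest in rat 3, where 18.5% of all such named genes were lowest. None, 0 of 11, was highest in rat 3, where 33.1% of named genes were highest. These counts leave out genes flat on the deposited scale, a choice made after the counts were seen. With flatness judged after rescaling instead, Lars1, Qars1 and Rars1, flat as deposited, came in, which made 14 synthetases. After median centring, 3 of these 14 were highest in rat 3 and 5 were lowest in rat 2. After quantile normalization, 8 of the 14 were lowest in rat 3. The lowest and highest rats of Lars1, Qars1 and Rars1 in these counts come from the rescaling itself, so they add nothing on the synthetases. In rat 1, 5 of 11 were highest and 2 lowest, against 24.7% and 29.5% of named genes, and in rat 2, 5 were highest and 2 lowest, against 21.5% and 28.9%. In rat 4, 1 was highest and 2 lowest, against 20.7% and 23.1%. The order rat 1, 4, 2 and 3, seen in Eprs1, Mars1 and Yars1, occurred in 3 of 11 synthetases, in 0 of 33 translation factors and regulators and in 2.72% of named genes. This order was picked after the values were seen, and in Yars1 it rests on a small step between rats 4 and 2. Of the 6 synthetases with a TGATGNAA match among these 11, 3 were lowest in rat 3 (Cars1, Mars1 and Yars1), as were 2 of the 5 without a match or a window (Eprs1 and Sars1).

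The list of ATF4 and amino acid response genes had 12 of 16 measured genes above background, and 11 without rat 1 or without rat 4, where Psat1 was no longer above it. Psat1, a serine synthesis enzyme, had the largest SD of the list, with 8.83, 8.26, 7.50 and 8.51 (8.27 ± 0.57), in the order rat 1, 4, 2 and 3. Its mean lay just above the background level of 8.25 and its value in rat 3 below it. Phgdh, the first enzyme of the same pathway, had 9.16, 8.69, 8.20 and 8.85 (8.72 ± 0.40), with rat 3 also below that level. Asns, asparagine synthetase, had 8.36, 7.90, 7.51 and 8.26 with a mean of 8.01 below background, and Slc3a2, the heavy chain of amino acid transporters, had 10.21, 9.87, 9.74 and 9.93 (9.94 ± 0.20). These also followed the order rat 1, 4, 2 and 3, and they were named after their values were seen, except Psat1. Atf4 had 10.45, 9.92, 10.56 and 10.33 (10.31 ± 0.28), highest in rat 3 and lowest in rat 2. Its partner Cebpb was likewise highest in rat 3 (9.84) and lowest in rat 2 (9.27). The arrays measured mRNA, so the activity of these proteins was not tested. Of the 9 genes of the list above background and not flat, 3 had the order rat 1, 4, 2 and 3 (Phgdh, Psat1 and Slc3a2). By lowest rat, 4 of the 9 were lowest in rat 2, 3 in rat 3 and 2 in rat 4. Ppp1r15b had 9.22, 9.05, 9.53 and 9.22, highest in rat 3 and lowest in rat 2. The highest mean of the list was that of Atf5, with 11.55, 11.32, 11.51 and 11.45 (11.46 ± 0.10). Next came Shmt2, which links serine and glycine, with 10.47, 10.29, 10.47 and 10.26 (10.37 ± 0.11).

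**Figure D5:**
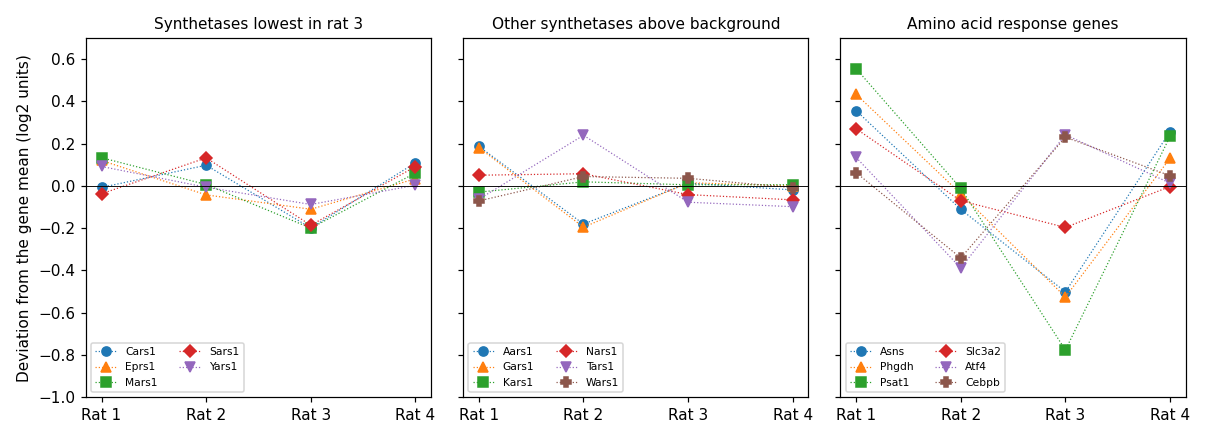
Deviation from the gene mean in log2 units (y axis) in each of 4 rats (x axis). The panels show 5 synthetases lowest in rat 3, the other 6 above background and not flat, and 6 of the 16 measured amino acid response genes. Dotted lines join the points of a gene, since rats have no order. The left panel was chosen by its low rat 3, and the genes of the right panel, except Psat1, were picked with their values seen. There Asns, Phgdh, Psat1 and Slc3a2 are lowest in rat 3, with Psat1 at -0.78, and Atf4 and Cebpb are lowest in rat 2. Asns lies below background. Of the 9 genes of that list above background and not flat, 3 were lowest in rat 3.

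Markers of other cells differed between the same rats. Of the 6 stellate cell and fibroblast markers above background, 5 were lowest in rat 3, and the mean signal of that whole list was 8.48, 8.63, 8.30 and 8.62 in rats 1 to 4. The mean of the Kupffer cell list was 9.60, 9.79, 9.72 and 9.65, of the endothelial list 8.82, 8.82, 8.95 and 8.86 and of the hepatocyte list 13.37, 13.50, 13.56 and 13.48. Without Tat and Apoa1, left out after their values were seen, the mean of the other 11 hepatocyte markers was 13.81, 13.81, 13.83 and 13.82. The mean of the blood cell list was 9.51, 9.23, 9.41 and 9.16, and both of its genes above background were highest in rat 1, with the hemoglobin chain Hbb at 11.91 in rat 1, 11.27 in rat 2, 11.64 in rat 3 and lowest in rat 4 (11.46 ± 0.40). The other of these blood genes, Alas2, had 8.43, 8.22, 8.40 and 8.28 in rats 1 to 4. The part of these cells in the differences between synthetases was not tested.

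Other genes of the pathway were counted by list. The list of synthetase complex partners was above background for 4 of 4 genes. It also holds Farsa and Farsb, the chains of the phenylalanine enzyme. That enzyme is a synthetase whose symbols the rule for members missed. Farsb, its beta chain, was flat at 9.41, and the scaffold Aimp2 was flat at 8.47. The scaffold Aimp1 had 8.38, 8.30, 8.38 and 8.30 (8.34 ± 0.05). Mitochondrial translation factors were above background for 3 of 4 measured genes, with the elongation factor Tufm at 9.94, 9.99, 10.05 and 9.94 and Gfm1 flat at 8.77. Partners of the cap and the poly(A) tail were for 7 of 11, with the helicase Ddx3x at 10.34, 10.20, 10.42 and 10.22 and Larp1, which binds pyrimidine-tract mRNAs, at 9.98, 9.81, 9.80 and 9.78. The eIF4E kinase Mknk2 had the largest SD of that list, with 9.19, 9.10, 9.45 and 9.45 (9.30 ± 0.18). Genes of mTORC1 signalling were above background for 8 of 11, with the GTPases Rheb at 10.19 ± 0.02 and Rraga at 9.38 ± 0.09. Genes of selenocysteine insertion were for 3 of 5, with Sephs2 flat at 10.48 and Sepsecs at 9.29, 9.45, 9.35 and 9.41 (9.37 ± 0.07).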

How the data were processed

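Total RNA from 4 rat livers was hybridised to Affymetrix arrays. Per the submitters' processing notes, the authors used R 2.4.1, affy 1.12.2, GCRMA and RMA; which of the last 2 methods was applied is not given in the sources used here. Scanner settings and protocol text name different versions of the array. The deposited values are log2 signals from 5.98 to 15.07, with array medians of 8.11 each, and were used as deposited. Of 15923 probe sets, 12789 carry 1 gene symbol in the platform annotation; all 80 members matched GRCr8 RefSeq by gene number. The background list, roles, related lists and markers, like the members, were chosen with earlier results of these data known.

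With 1 group, no test between conditions was possible, and values are described by mean, SD and deviation from the gene mean. The number of arrays limits precision. Per role, the 2 members of highest mean and the 2 with the largest SD above background and not flat were given in every rat. The same held for the kinases, binding proteins, Eef2k, release factors and paralogs. Related lists gave the 2 highest and the 1 with the largest SD. Of the ATF4 and amino acid response list, Phgdh, Asns, Slc3a2, Atf4, Cebpb and Ppp1r15b were named beyond this rule, with their values seen. Functions were tested on simulated data. Alternatives covered the background level, probe set choice, scaling and leaving out each rat. Python 3.11.15, numpy 2.4.6, pandas 2.3.3 and matplotlib 3.10.9 were used.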

Additional observations from a re-analysis of the deposited data

Results flagged for a closer look

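A rat stood far from the rest, relative to the range, in 7 of the 107 sets of 4 values examined; chance gives about 5%. The members were Eif1b (8.67 in rat 3, high), Eif4a2 (10.22 in rat 3, low), Eif4ebp3 (9.29 in rat 3, high), Eif5b (8.19 in rat 2, high, over a range from 8.14) and Tars1 (10.16 in rat 2, high). Of the related genes, Larp1 was high in rat 1 (9.98), and the kinase Mtor was low in rat 1 (8.40). Eif5b lay below background.

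Probe sets assigned to several symbols were left out of the results above, and 4 of those that name a factor were above background. The probe set shared by Eif3e and Eif3el1 was flat at 9.64. Those shared by Eif5, which triggers GTP hydrolysis on eIF2, and Eif5-ps1 had means of 8.83, 10.11 and 10.45.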

How the results depend on the processing

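No paired analysis was possible because all 4 samples form 1 group. Leaving Myh1 out of the background list was not run, because the list does not hold it, and the choice named as another list is the list used. The count of 60 members above background was 60 to 61 without each rat. With the level raised by 1 log2 unit, chosen after seeing the data, it was 32. Above that level were 1 gene of the synthetase partner list, 1 mitochondrial factor, 2 mTORC1 genes and 6 ATF4 and amino acid response genes. There 1 cytosolic synthetase was lowest in rat 3 instead of 5; Mars1, Yars1, Sars1 and Cars1 have means under 9.25. The median SD of 0.0586 was 0.0539 with the 90th percentile, 0.052 with each gene at the median over its probe sets, 0.0696 without flat probe sets, 0.0677 with the raised level and 0.046 to 0.0556 without each rat; the median range was 0.125. The median deviation in rat 1 (-0.0087) was -0.016 without probe sets ending in s, x or a, 0.0018 with the raised level and -0.0058 to 0.0011 without each other rat. In rat 2 (0.0023) it was 0.0182 after quantile normalization and 0.0146 with the raised level, and in rat 3 (0.0035) -0.0173 after quantile normalization; the cause was not tested. Flat probe sets were identified on the deposited scale in these alternatives, decided after seeing the results, because rescaling gives probe sets that are flat there small differences between rats. After quantile normalization 3 of 80 signals moved by more than their SD when flat genes were allowed 0.001 log2 units, an allowance also set after seeing the results, and 24 without it. At the median over probe sets, 10 of 80 signals moved by more than their SD, among them Eif4g1 (9.05), Eif4g2 (10.45) and Eif4e (8.66). At the 90th percentile 62 members were above background, with Eif2b5 and Eef2k added, and at the 98th 59, without Eif2b1; there 10 amino acid response genes were above it, without Psat1 and Ppp1r15a.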
